A study of Mus musculus with 6 samples.

Results

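The genes described here encode the subunits of the mitochondrial respiratory chain, cytochrome c and the ATP synthase. They were chosen by symbol from the protein-coding genes of the GENCODE M21 annotation (names beginning with Ndufa, Ndufb, Ndufc, Ndufs or Ndufv and a digit, with Uqcr, Atp5 or Cox followed by 4 to 8, the genes Sdha to Sdhd, Cyc1 and Cycs, and the protein-coding genes of the mitochondrial genome). The rule used no measured value and gave 100 of 54356 genes, 87 in the nucleus and 13 in mitochondrial DNA. By name, 44 belonged to complex I, 4 to complex II, 10 to complex III, 1 to cytochrome c, 21 to complex IV and 20 to complex V. The rule sorts by name, so Ndufa4, whose protein is known to sit in complex IV, counts with complex I, and Cox7a2l, known for joining complexes III and IV into supercomplexes, counts with complex IV.

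RNA with a poly(A) tail was sequenced from epididymal white adipose tissue, the visceral fat pad along the epididymis, of 6 wild-type male C57BL/6N mice aged 20 weeks. Mice 5, 6 and 10 are labelled ctrl and mice 7, 12 and 16 are labelled cold. The labels carry a single treatment text, shared by ctrl and cold samples, with mice kept alone at 4 °C during 24 h, and a general room temperature of 22 to 24 °C. The sources used here do not say how the controls were caged on that day. Each library comes from 1 mouse, and p-values refer to the variation among these animals.

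The chain carries electrons from NADH (complex I) and succinate (complex II) through ubiquinone, complex III and cytochrome c to complex IV, which reduces oxygen. Complexes I, III and IV pump protons across the inner membrane, and complex V uses their return to make ATP. Brown fat uses this chain to make heat through the uncoupling protein Ucp1, whereas white fat of the epididymis holds fewer mitochondria. The subunits come from both genomes, since mitochondrial DNA is copied into long transcripts from each strand that are cut into single mRNAs, and nuclear subunit genes are read one by one, many under the transcription factors NRF1 and GABP.

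Promoters are shown to describe the nuclear members, whose summed level stayed between 94.5 and 107.6% of the control mean in every library. A link between promoter motifs and that level was not tested. RefSeq promoters (GRCm38.p6, 250 bases before to 50 after the start) were matched by gene identifier or symbol for 67 of 86 nuclear symbols. That gave 72 promoters, beside 32851 promoters of all genes. On either strand, the NRF1 motif read as GCGC, any base and TGCGC stood in 25.0% of the members' promoters and in 4.60% of all promoters. The ETS motif bound by GABP, CCGGAAG, stood in 22.2% and 8.86%, the YY1 motif AAGATGGCG in 9.72% and 1.40%, and the estrogen-related receptor motif TCAAGGTCA in 2.78% and 0.423%. The cAMP response motif TGACGTCA stood in 6.94% and 1.79%, CCAAT in 43.1% and 37.4%, and TATAAA in 11.1% and 13.6%. A match is a description of the letters and not a site, and the promoters of all genes were not matched to those of members in base content or level. The 7 stretches below, 5′ to 3′ on the strand of the gene, were chosen to show the NRF1, ETS and cAMP response motifs (capitals) across the complexes, with Cycs and Sdhd among them for their small p-values. Matches to CCAAT within them are left in lower case. They lie before the annotated start and hold no exon of the gene.
Ndufa11 (complex I, NRF1 motif, chr17:56717687-56717761, + strand): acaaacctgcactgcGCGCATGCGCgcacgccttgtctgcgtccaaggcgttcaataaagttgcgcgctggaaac
Ndufs5 (complex I, NRF1 motif, chr4:123718207-123718316, - strand): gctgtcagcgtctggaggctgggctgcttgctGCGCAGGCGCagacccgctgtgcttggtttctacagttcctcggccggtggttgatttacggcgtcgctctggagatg
Sdhd (complex II, ETS motif, chr9:50603850-50603909, - strand): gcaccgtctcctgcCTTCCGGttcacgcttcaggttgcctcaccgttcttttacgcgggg
Uqcrh (complex III, ETS motif, chr4:116075073-116075170, - strand): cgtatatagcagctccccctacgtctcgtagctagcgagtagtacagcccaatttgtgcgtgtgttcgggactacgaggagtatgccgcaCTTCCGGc
Cycs (cytochrome c, cAMP response motif and a shorter NRF1 motif, chr6:50566570-50566749, - strand): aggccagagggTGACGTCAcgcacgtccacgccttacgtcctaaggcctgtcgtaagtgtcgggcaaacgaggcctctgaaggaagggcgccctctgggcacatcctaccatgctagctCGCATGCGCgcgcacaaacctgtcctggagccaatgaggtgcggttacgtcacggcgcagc
Cox6a1 (complex IV, NRF1 motifs, chr5:115349039-115349128, - strand): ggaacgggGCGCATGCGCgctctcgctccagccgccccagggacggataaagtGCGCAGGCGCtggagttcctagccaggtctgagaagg
Atp5e (complex V, ETS motif, chr2:174464122-174464231, - strand): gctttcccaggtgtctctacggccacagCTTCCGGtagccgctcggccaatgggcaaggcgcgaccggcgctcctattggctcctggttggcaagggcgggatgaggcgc
In Cycs the NRF1 motif was searched as the shorter CGCATGCGC, a choice made after its letters were seen; that form can overlap the longer motif and stood in 12.5% of the members' promoters and 1.75% of all.

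Libraries held 19735167 to 28608052 estimated counts, the least in ctrl 10 and the most in cold 16. All 5 genes taken to mark the chain (mt-Co1, Ndufa9, Sdha, Uqcrc2 and Cox5a) were present in every library, with Ndufa9, the lowest of the 4 nuclear ones by level per length, at 107 to 123 CPM (counts scaled to a common library size). Of the lists for other cell types the pad could hold, those for epithelium and motile cilia had the most genes called by edgeR. Markers of epithelium summed to 64.4, 18.7 and 37.9 CPM in ctrl 5, 6 and 10 and to 179, 303 and 272 CPM in cold 7, 12 and 16, with 4 of 10 genes called higher. Markers of motile cilia summed to 28.4, 7.68 and 6.36 against 60.4, 176 and 147 CPM, with 4 of 9 called higher. Markers of male germ cells were high in 2 libraries, with 0.0412, 3.93 and 1.38 CPM in controls and 66.4, 50.9 and 3.66 in the cold. None of these lists had a gene at 0 in every library. Endothelial markers summed to 1279, 1323 and 1319 CPM in controls and 1040, 1093 and 1226 with cold; edgeR called none of 6 (3 at an unadjusted p under 0.05) and DESeq2 called 1. Summed skeletal muscle markers lay between 10.9 and 23.4 CPM in both groups, and adipocyte markers between 36387 and 41931. Of 10 adipocyte markers, edgeR called Lep (leptin) higher, at 0.61 on the log2 scale (adjusted p = 0.0439), and Cfd (adipsin) lower, at -0.59 (adjusted p = 0.0438); 5 had an unadjusted p under 0.05 and DESeq2 called 3. Over all genes tested, edgeR called 2.32% higher and 0.566% lower at an adjusted p under 0.05. DESeq2 called 7.51%, and 17.6% had an unadjusted p under 0.05 by edgeR. In such bulk samples, fewer cells of a type and less RNA per cell cannot be told apart.

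Members took 5.00 to 6.85% of all counts, of which the 13 mitochondrial genes held 3.76 to 5.57% and the nuclear genes 1.14 to 1.28%. Levels were compared between genes by deposited TPM, which is scaled for transcript length. Among nuclear members the catalytic beta subunit of the ATP synthase, Atp5b, had the highest mean at 1891 TPM. It was followed by Cox8a at 1492, Cox6a1 at 1440, Cox4i1 at 1203 and Cox7c at 1186, all small or regulatory subunits of complex IV. The median over tested nuclear members was 220 TPM in complex I, 195 in complex II, 371 in complex III, 305 in complex IV and 341 in complex V. Cycs, the one soluble carrier of the chain, stood at 32.0 TPM, below every nuclear member of complexes II and III. That rank is uncertain, because near copies held 66.3 to 70.2% of the reads of Cycs and its copies together. Cox4i2, Cox6b2, Atp5s and Cox7a1 were the lowest tested members at 13.5, 14.4, 14.7 and 15.7 TPM.

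**Figure D1:**
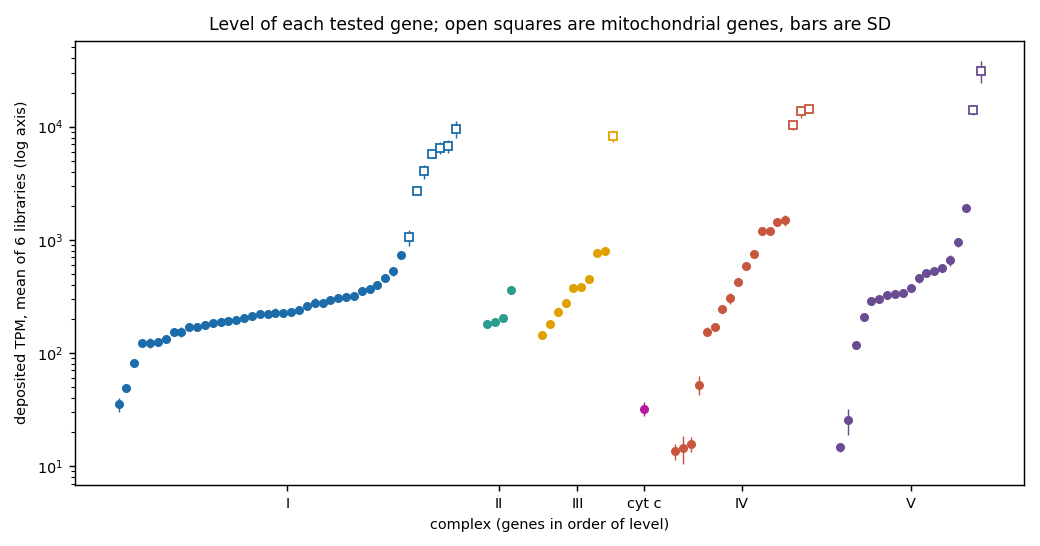
Mean deposited TPM over 6 libraries (log axis) of the 96 tested genes, ordered within each complex, with bars for SD. Open squares are the 13 mitochondrial genes, all at 1050 TPM or more. Filled points are nuclear genes, from 13.5 TPM for Cox4i2 to 1891 TPM for Atp5b.

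The comparison of cold with ctrl asked whether the chain's genes differ after cold exposure. None of the 96 members with enough reads was called higher or lower by edgeR's quasi-likelihood test at an adjusted p under 0.05, against 2.89% of 17852 genes. By direction, the background was 2.32% called higher and 0.566% called lower. At an unadjusted p under 0.05 there were 4 members (Cycs, Cox7a2l, Sdhd and Cox6b2, all higher in the cold), against 17.6% of all genes. DESeq2 called 1 member, Cycs, against 7.51%, and edgeR without the low-count filter also called Cycs alone, against 2.65%. Without cold 7, mt-Nd3 was called, and no other single library left out gave a member call. Those fits differed widely over all genes, with 929 called higher without cold 7, 649 without ctrl 5, 2 without cold 16 and 0 without ctrl 6, ctrl 10 or cold 12.

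Most members had small positive values. The log2 fold change was above 0 in 79 of 96 members, against 47.6% of all genes, and its median was 0.07 against -0.01. Log2 differences below are these log2 fold changes of cold against ctrl. The count depended on the libraries, from 65 without cold 16 to 87 without ctrl 6. The median was 0.031 without cold 16, 0.046 without ctrl 10 and 0.129 without ctrl 6 or without cold 12. With 1 library left out it ran from 0.023 to 0.126 in complex I, 0.020 to 0.079 in complex II, 0.023 to 0.143 in complex III and 0.063 to 0.143 in complex IV. The 95% interval of the change lay within 1.5-fold either way for 87 of 96 members, against 54.2% of all genes. That held for 78 of 83 nuclear and 9 of 13 mitochondrial genes. Members also had smaller standard errors, with a median of 0.09 against 0.15 over all genes tested, which narrows their intervals. All 3 cold libraries lay above all 3 controls in 10 members, against 12.7% of genes, and below them in 1 member, Atp5s, against 11.0%; either way the background was 23.8%. The 10 were mt-Nd6, Sdhd, Uqcrb, Cycs, mt-Co2, Cox6b2, Cox7a1, Cox7a2, Cox7a2l and Atp5d, so these shares were near or below the background.

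**Figure D2:**
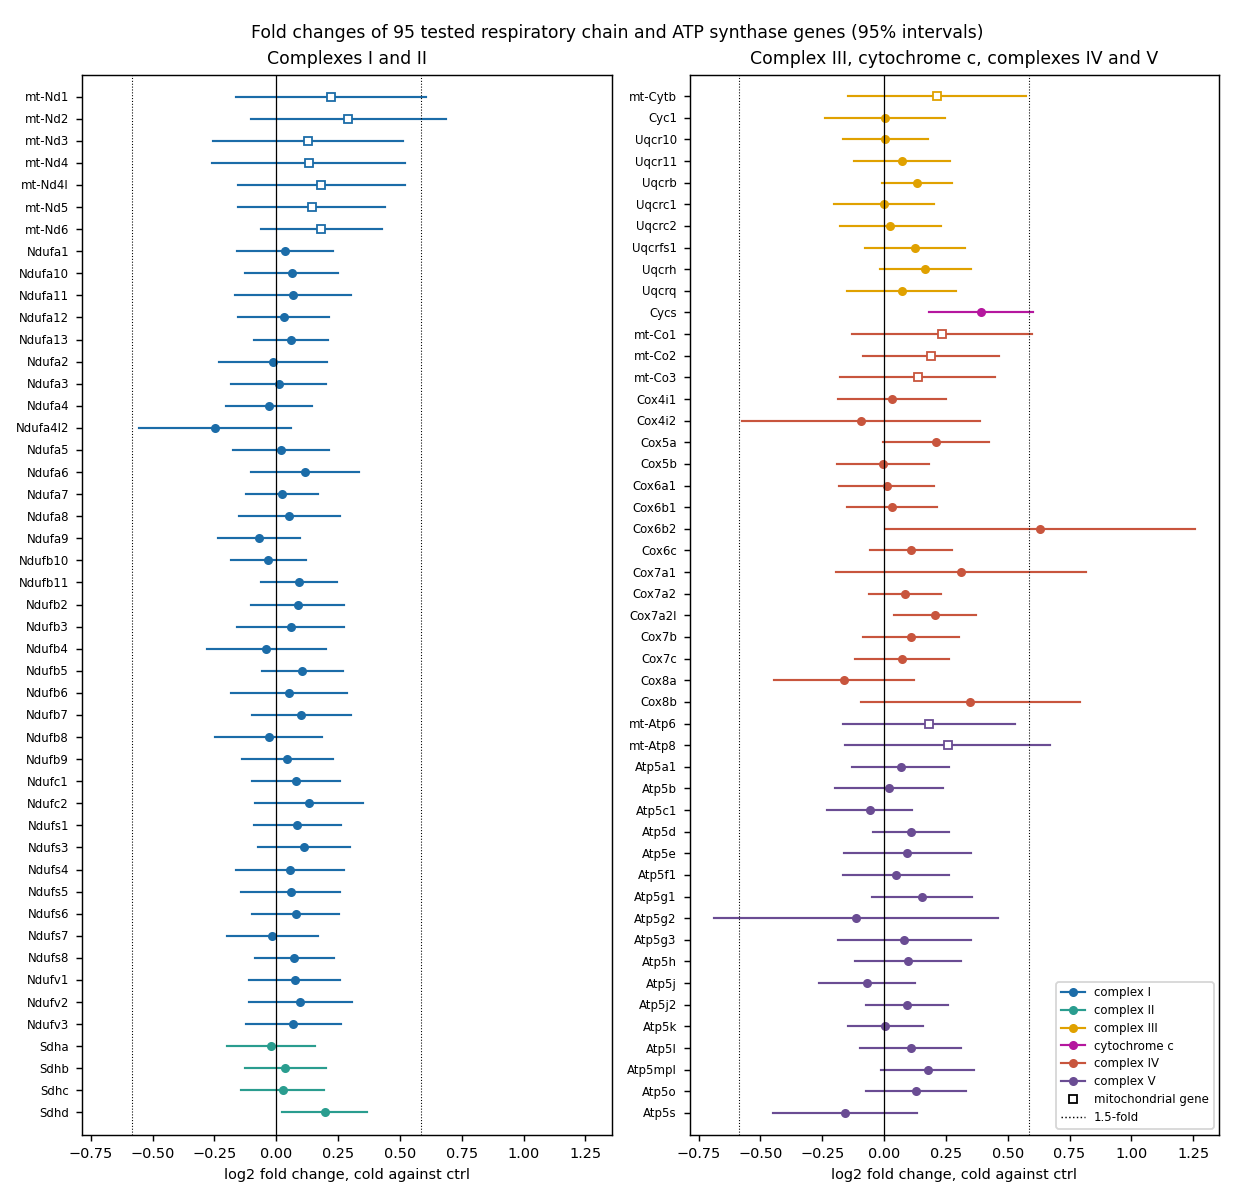
Log2 fold change of cold against ctrl (x axis) for 95 of the 96 tested genes, with 95% intervals from edgeR; colours mark complexes, open squares mitochondrial genes and dotted lines a 1.5-fold change. Values ran from -0.25 (Ndufa4l2) to 0.63 (Cox6b2), and Cycs, Sdhd, Cox7a2l and Cox6b2 had intervals that excluded 0.

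Complex I takes electrons from NADH. Its 37 nuclear genes summed to 3336, 3657 and 3241 CPM in the controls and to 3530, 3357 and 3606 in the cold, so the groups overlapped. None of the 37 was called, their median log2 fold change was 0.06, and all of their 95% intervals lay within 1.5-fold. Core subunits carry the flavin and the iron-sulfur clusters. The flavin subunit Ndufv1 had 178, 208 and 180 CPM against 198, 197 and 201, a log2 fold change of 0.07 (SE 0.08). The core subunits Ndufs1, Ndufs3, Ndufs7, Ndufs8 and Ndufv2 stood at 0.08, 0.11, -0.02, 0.07 and 0.10 on the log2 scale. Among the accessory subunits, Ndufa9 had 116, 123 and 109 CPM against 115, 107 and 110, a log2 fold change of -0.07 (SE 0.07). Ndufc2 had the highest value of the nuclear group at 0.13 (SE 0.10) and Ndufb5 was at 0.11 (SE 0.07).

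Ndufa4l2, the paralog of Ndufa4 known for its induction in low oxygen, was the lowest of the group. It had 22.2, 21.1 and 19.2 CPM in controls and 16.3, 15.3 and 21.1 CPM in the cold. Cold 16 lay within the range of the controls and the other two cold libraries below it. The log2 fold change was -0.25 (SE 0.13, 95% interval -0.55 to 0.06, adjusted p = 0.410 by edgeR). Its share of the TPM of the pair with Ndufa4 was 4.94% ± 0.30 in controls and 4.15% ± 0.54 in the cold (SD, n = 3 each). Ndufa4 itself was the most abundant nuclear member sorted under complex I, at 736 TPM, with a log2 fold change of -0.03 (SE 0.08).

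Complex II, succinate dehydrogenase, has 4 subunits, all nuclear, and also works in the citric acid cycle. They summed to 945, 1001 and 912 CPM in controls and 977, 964 and 961 in the cold. The membrane anchor Sdhd (chromosome 9, 50596357 to 50603812, GRCm38) had 117, 121 and 107 CPM against 128, 129 and 137, with no overlap between the groups. Its log2 fold change was 0.20 (SE 0.07, 95% interval 0.02 to 0.37, unadjusted p = 0.0297, adjusted p = 0.216 by edgeR). The flavoprotein Sdha had 553, 582 and 528 CPM in controls and 560, 552 and 526 in the cold, a log2 fold change of -0.02 (SE 0.08). The iron-sulfur subunit Sdhb stood at 0.04 and the other anchor, Sdhc, at 0.03, both with an SE of 0.07. All 4 had intervals within 1.5-fold.

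Complex III passes electrons from ubiquinol to cytochrome c. Its 9 nuclear genes summed to 1278, 1402 and 1198 CPM in controls and 1302, 1319 and 1413 in the cold, with a median log2 fold change of 0.07 and no call. The core protein Uqcrc2 had 163, 176 and 149 CPM against 152, 168 and 176, a log2 fold change of 0.03 (SE 0.09), and its partner Uqcrc1 was at 1.8e-05 (SE 0.09). The Rieske iron-sulfur protein Uqcrfs1 was at 0.13 (SE 0.09) and the heme protein Cyc1 at 0.0033 (SE 0.11). Uqcrb had 88.3, 88.5 and 85.4 CPM in controls and 97.2, 94.97 and 95.7 in the cold, without overlap. Its log2 fold change was 0.13 (SE 0.06, 95% interval -0.01 to 0.28, adjusted p = 0.313). The hinge protein Uqcrh stood at 0.17 (SE 0.08, adjusted p = 0.343), both by edgeR, and Uqcrq, the most abundant nuclear subunit at 803 TPM, at 0.07.

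Cycs, which encodes the cytochrome c of somatic cells, came closest to the threshold. The gene (chromosome 6, 50562563 to 50566538) had 45.0, 53.1 and 46.2 CPM in ctrl 5, 6 and 10 and 64.7, 57.7 and 67.0 CPM in cold 7, 12 and 16. Every cold library lay above every control. The means were 48.1 ± 4.39 and 63.2 ± 4.85 CPM (SD, n = 3 each), which gave a log2 difference of 0.39 (SE 0.09, 95% interval 0.18 to 0.60, adjusted p = 0.0637 by edgeR). DESeq2 gave 0.40 with an adjusted p of 0.00964, and edgeR without the low-count filter 0.39 with 0.0188. Over all alternatives the value ran from 0.33 to 0.48 and the adjusted p from 0.00964 to 0.210.

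The count of Cycs depends on how reads were shared with a near copy. Gm10053, annotated as protein coding (chromosome 19, 24875686 to 24876631), matched it over 946 bases at 99.9% identity and held more reads. It had 106, 118 and 107 CPM in controls and 126, 133 and 148 in the cold, again without overlap, at 0.30 on the log2 scale (SE 0.08, edgeR adjusted p = 0.103). Near copies together held 66.3 to 70.2% of the reads of the family. Cycs summed with them had 151, 172 and 153 CPM against 192, 194 and 217, a log2 difference of 0.34 (SE 0.09; edgeR, adjusted p = 0.0743). The summed epithelial and the summed cilium markers were also higher in all 3 cold libraries, and the part of these cells in this value was not tested.

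**Figure D3:**
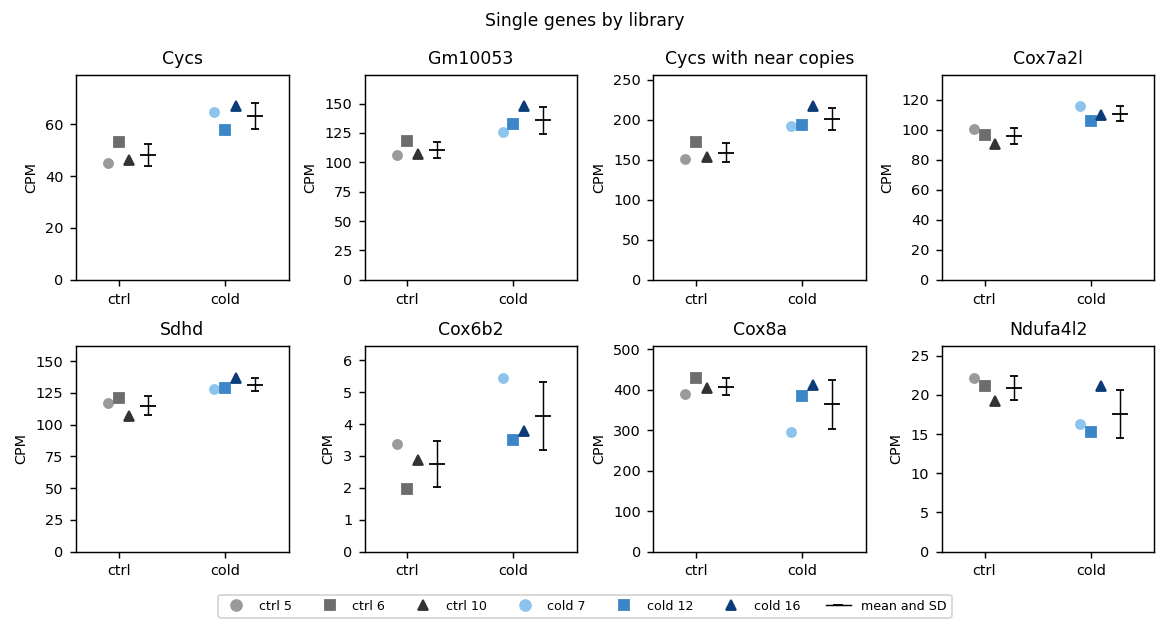
CPM by library for 6 members, the near copy Gm10053 and Cycs summed with its near copies, with mean and SD of 3 libraries to the right of each group; the y axes start at 0. Cycs, Gm10053 and their sum, Cox7a2l, Sdhd and Cox6b2 had every cold library above every control, while Cox8a and Ndufa4l2 overlapped.

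Complex IV reduces oxygen. Its nuclear genes summed to 2229, 2448 and 2166 CPM in controls and 2288, 2236 and 2427 in cold mice, and the 15 tested had a median log2 fold change of 0.08 with no call. Cox7a2l (chromosome 17, 83501918 to 83517330) had 101, 96.4 and 90.2 CPM against 116, 106 and 109. All cold libraries were higher, and the log2 fold change was 0.21 (SE 0.07, 95% interval 0.04 to 0.37, unadjusted p = 0.0212, adjusted p = 0.181 by edgeR). Cox5a had 80.8, 92.7 and 78.3 CPM against 104, 88.1 and 98.7, a log2 difference of 0.21 (SE 0.09; edgeR, adjusted p = 0.299), with cold 12 below ctrl 6. Its neighbour in the complex, Cox5b, stood at -0.004 (SE 0.08).

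Cox8a, the second most abundant nuclear member, was low in 1 library. It had 388, 430 and 404 CPM in controls and 296, 383 and 413 CPM in the cold, so cold 7 lay apart and the other two cold libraries within or near the controls. The log2 fold change was -0.16 (SE 0.12, 95% interval -0.45 to 0.12, adjusted p = 0.573 by edgeR), and it was -0.04 without cold 7.

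Several complex IV subunits exist as pairs, with one form in most tissues and another known from heart and skeletal muscle, brown fat, lung or testis. By TPM the common form held the largest share in each family below. Cox4i1 held 98.7 to 99.1% against the lung form Cox4i2, and Cox6a1 99.94 to 99.98% against the muscle form Cox6a2. Within Cox7a, Cox7a2 held 57.2 to 61.6%, Cox7a2l 35.2 to 39.0% and the muscle and brown fat form Cox7a1 3.13 to 4.29%. Counted by CPM, which is not scaled for length, the mean share of Cox7a2 was 43.5%, and Cox7a2l then held the larger share in every library, at 53.0 to 57.3%.

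The rarer forms had few reads and wide intervals. Cox7a1 had 1.94, 2.54 and 1.999 CPM in controls and 2.67, 2.55 and 2.82 in the cold, where the nearest libraries, ctrl 6 and cold 12, almost met. It had a log2 fold change of 0.31 (SE 0.22, 95% interval -0.20 to 0.82). Cox8b, known from muscle and brown fat, had 5.52, 6.56 and 4.36 CPM against 6.77, 6.24 and 7.95, a log2 difference of 0.35 (SE 0.19; edgeR, adjusted p = 0.420). Its share of the Cox8 family was 2.84% ± 0.49 in controls and 4.03% ± 0.66 in the cold (SD, n = 3 each), beside the low Cox8a of cold 7. Brown and beige adipocyte markers summed to 9.98, 10.3 and 7.64 CPM in controls and 12.5, 12.6 and 13.2 in the cold. Dio2, the 1 of 4 tested genes called, had 0.330, 0.357 and 0.410 CPM against 1.35, 2.71 and 2.79. The other tested genes, Cidea, Cpt1b and Otop1, overlapped between the groups, with log2 fold changes of 0.16, 0.18 and 0.35. The defining gene Ucp1 had 10, 0 and 0 reads in controls and 3, 7 and 1 in the cold, too few to test. Also untested, Zic1 averaged 0.273 and 0.266 CPM. Elovl3 had 0, 2 and 0 reads in controls against 4, 2 and 1 in the cold. Cited1 had 0, 1 and 1 reads against 15, 4 and 5, and neither was tested. The part of these cells, or of muscle, in the value of Cox8b was not tested. Cox4i2 stood at -0.09 (SE 0.21), and Cox6a2 had 3, 7 and 2 reads against 4, 2 and 4, too few to test.

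Forms known from testis followed another order of libraries. Cox6b2 had 3.38, 1.964 and 2.87 CPM in controls and 5.46, 3.49 and 3.80 in the cold, where cold 7 was highest and ctrl 5 lay just below cold 12. The log2 fold change was 0.63 (SE 0.27, 95% interval 0.003 to 1.26, unadjusted p = 0.0491, adjusted p = 0.281 by edgeR), and its share of Cox6b was 1.92% ± 0.44 in controls and 2.81% ± 0.41 in the cold (SD, n = 3 each). Cox8c had no read in any control and 22, 3 and 0 in cold 7, 12 and 16, and Cox7b2 had none against 11, 2 and 0. Neither was tested. Their reads came from the 2 cold libraries in which male germ cell markers summed to 66.4 and 50.9 CPM. Cold 16, with germ cell markers at 3.66 CPM, had Cox6b2 at 3.80 CPM. The part of germ cell RNA in these values was not tested.

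Complex V makes ATP. Its nuclear genes summed to 4028, 4476 and 3895 CPM in controls and 4409, 4172 and 4232 in the cold, with a median log2 fold change of 0.08 over 17 tested genes and no call. Over all 19 tested members, mitochondrial ones included, the median was 0.09, 0.04 without cold 7 and 0.15 without cold 12. The catalytic Atp5b had 1345, 1553 and 1314 CPM in controls and 1459, 1413 and 1395 in the cold, a log2 fold change of 0.02 (SE 0.10). Its partner in the catalytic head, Atp5a1, had 854, 916 and 803 CPM against 933, 891 and 871, at 0.07 (SE 0.09). The central stalk subunit Atp5c1 stood at -0.06 (SE 0.08). Atp5mpl, a small subunit of the membrane part, had the highest value of the nuclear genes at 0.18 (SE 0.08, adjusted p = 0.331 by edgeR). Atp5s, known as coupling factor B, had 8.12, 7.99 and 8.41 CPM against 7.43, 6.99 and 7.53, the only member with all cold libraries below all controls. Its log2 fold change was -0.16 (SE 0.13, adjusted p = 0.595).

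Subunit c, which forms the rotor ring, is encoded by 3 genes that give the same mature protein. Atp5g3 held 85.6 to 87.7% of their TPM, Atp5g1 10.3 to 11.3% and Atp5g2 1.69 to 3.50%. Atp5g3 stood at 0.08 (SE 0.12), Atp5g1 at 0.15 (SE 0.09) and Atp5g2 at -0.12 (SE 0.25) on the log2 scale. The share of Atp5g2 is uncertain, because 90.0 to 94.2% of the reads of this gene and its near copy Gm10175 (chromosome 7, identical over 645 bases) were assigned to the copy. In all, 27 members had a near copy on another chromosome, of at least 250 bases at 95% identity. In 8 of them the copies held at least 1% of reads in some library, and in 4 (Cycs, Atp5g2, Ndufb4 and mt-Nd3) most of the reads. A second gene entry named Atp5o had no read in any library.

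By TPM, 12 of the 13 mitochondrial genes lay above every nuclear member, and mt-Nd3 lay below 5 of them. The rank of mt-Nd3 is uncertain, because 66.2 to 75.8% of its reads and those of a near copy were assigned to the copy. Mt-Co1, the catalytic subunit of complex IV (mitochondrial genome, 5328 to 6872), had 10322, 9930 and 11326 CPM in controls and 10012, 12009 and 15088 in the cold. Cold 16 was highest, cold 12 was above the controls and cold 7 lay within them. The means were 10526 ± 720 and 12370 ± 2557 CPM (SD, n = 3 each), which gave a log2 difference of 0.23 (SE 0.16, 95% interval -0.13 to 0.60, adjusted p = 0.525 by edgeR). The only member of complex III in this genome, mt-Cytb, had 4293, 4587 and 4908 CPM against 4297, 5115 and 6575, a log2 fold change of 0.21 (SE 0.16).

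The same order of cold libraries ran through the mitochondrial genome. Summed over the 13 genes, controls held 37806, 40136 and 41752 CPM and cold 7, 12 and 16 held 37463, 44270 and 55495. Cold 16 was the highest of the 6 libraries in all 13 genes and cold 12 lay above every control in 12. Cold 7 lay above the control mean in 2, mt-Co2 and mt-Nd6, and was the lowest library in 5. Relative to the control mean, the median gene stood at 0.935 in cold 7, 1.10 in cold 12 and 1.36 in cold 16. The group means of the sum were 39898 ± 1984 and 45743 ± 9106 CPM (SD, n = 3 each), so they lay closer together than 1 SD of the cold group.

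**Figure D4:**
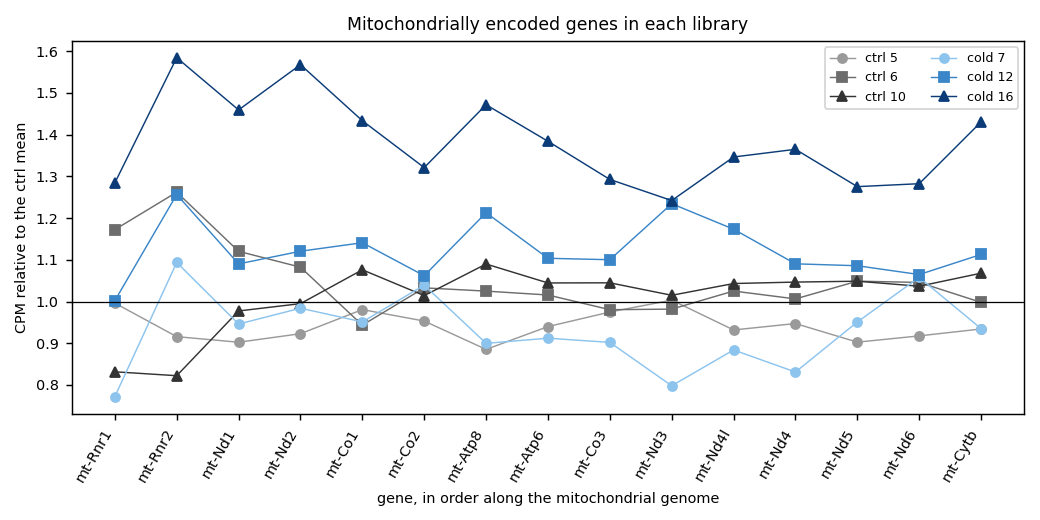
CPM of each mitochondrial gene divided by its control mean (y axis), in order along the genome (x axis), by library; the 2 rRNA genes at the left are not members. Cold 16 is highest in all 13 subunit genes (1.24 to 1.57) and cold 7 lies at 0.80 to 1.06. The value of 0.80 is that of mt-Nd3, where most reads of the gene and its near copy were assigned to the copy.

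All 13 log2 fold changes were positive, with a median of 0.18 and none called. These values share their libraries and their transcripts, and 13 positive signs are not 13 separate results. Without cold 16 the median was 0.03 and 11 of 13 stayed positive, and without cold 7 it was 0.31. The NADH dehydrogenase subunits mt-Nd1, mt-Nd2, mt-Nd4, mt-Nd4l, mt-Nd5 and mt-Nd6 stood at 0.22, 0.29, 0.13, 0.18, 0.14 and 0.18. The complex IV core subunits mt-Co2 and mt-Co3 stood at 0.19 and 0.14, and the ATP synthase subunits mt-Atp6 and mt-Atp8 at 0.18 and 0.26 on the same scale. Standard errors ran from 0.11 to 0.18, with a median of 0.16, against a median of 0.08 for nuclear members. Cold 16 was also the most deeply sequenced library, at 28608052 counts, and had the lowest summed macrophage markers, 391 CPM against 532 to 709 in the other 5. The part of these in the mitochondrial level was not tested.

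Among the 13 genes, mt-Nd6 alone is read from the opposite strand. It had 888, 1013 and 1004 CPM against 1024, 1031 and 1242, and its groups did not overlap (log2 fold change 0.18, SE 0.11, adjusted p = 0.451 by edgeR). The sources used here do not say whether counting used strand. The large rRNA mt-Rnr2, which is not a member, stood at 0.39 (SE 0.19) and the small rRNA mt-Rnr1 at 0.03 (SE 0.21). In these libraries of RNA with a poly(A) tail, mt-Rnr2 and mt-Rnr1 had 391 and 222 CPM per kilobase of annotated length, against 7410 for mt-Co1. The part of poly(A) selection in the values of mt-Nd6 and the rRNAs was not tested. Mt-Nd3 had 109, 106 and 110 CPM in controls and 86.3, 133 and 134 in the cold, with cold 7 below and the others above the controls. Its log2 fold change was 0.13 (SE 0.16), and 0.31 with an adjusted p of 0.0447 by edgeR without cold 7. However, 66.2 to 75.8% of its reads and those of its nuclear copy Gm28438 (chromosome 1, 99.7% identity over 345 bases) were assigned to the copy, and the sum stood at 0.20 (SE 0.13, adjusted p = 0.486).

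Some genes overlap on the mitochondrial mRNA. The last 43 bases of mt-Atp8 are the first of mt-Atp6 (chrM:7927-7969, + strand), shown because both genes hold them. The overlap is shorter than a read of 50 nt, and how reads across it were shared between the genes was not tested. Capitals mark the start codon of mt-Atp6.
mt-Atp8 and mt-Atp6 overlap: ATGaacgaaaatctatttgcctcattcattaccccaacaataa
Mt-Atp8 had the highest deposited TPM, 31145 ± 6904 (SD, n = 6), with an effective length of 29 to 34 bases for an annotated 204. By CPM per kilobase of annotated length it came sixth of 13, at 3450, and mt-Co1 came first at 7410, followed by mt-Co2 at 6176 and mt-Atp6 at 6006. The lowest on both scales was mt-Nd3, at 1050 TPM and 325 CPM per kilobase. That rank is uncertain, because 66.2 to 75.8% of the reads of mt-Nd3 and its near copy were assigned to the copy.

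Set against each other, the genomes differed in spread among the cold libraries. Nuclear members summed to 11861, 13038 and 11458 CPM in controls and 12571, 12106 and 12706 in the cold, between 94.5 and 107.6% of the control mean. Mitochondrial members lay between 94.8 and 104.6% in controls and between 93.9% (cold 7) and 139.1% (cold 16) in the cold. The ratio of the mitochondrial to the nuclear sum was 3.19, 3.08 and 3.64 in ctrl 5, 6 and 10 and 2.98, 3.66 and 4.37 in cold 7, 12 and 16, with means of 3.30 ± 0.30 and 3.67 ± 0.69 (SD, n = 3 each). Cold 7 had the lowest and cold 16 the highest ratio of all libraries, so the groups overlapped.

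**Figure D5:**
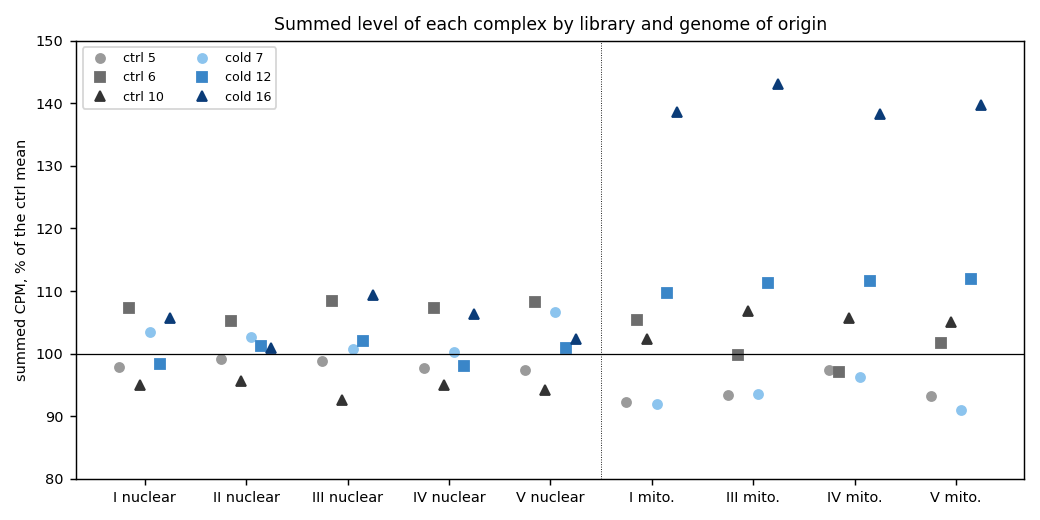
Summed CPM of each complex as a percentage of its control mean (y axis), split into nuclear and mitochondrial genes (x axis), by library. Nuclear sums lie between 92.7 and 109.3% in every library; in the mitochondrial sums cold 16 stands at 138.3 to 143.1% and cold 7 below 100%.

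Transcripts of the members were also tested singly. Of 291 tested, 0 were called by edgeR, as were 0 of 42984 transcripts of all genes, and 14 had an unadjusted p under 0.05, against 8.15% of all. DESeq2 called 1162 transcripts and 1 of a member. It was the main protein-coding transcript of Cycs, with 97.6% of the gene's reads, which had 1061, 1168 and 879 reads in controls and 1452, 1438 and 1869 in the cold, without scaling for depth. Its log2 fold change by edgeR was 0.41 (SE 0.10, unadjusted p = 0.00655, adjusted p = 0.315), and DESeq2's adjusted p was 0.0324. A processed transcript of Cox7c, with 40.0% of its reads, stood at 0.27 (SE 0.09, adjusted p = 0.467 by edgeR). A gene sum can hide transcripts with opposite signs. The main transcript of Ndufa9, with 85.4% of its reads, stood at -0.16 (SE 0.07). Another, with 14.1%, stood at 0.64 (SE 0.41), and edgeR called neither.

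Genes that build and regulate the chain were compared from lists made with earlier results known. Over all genes tested, edgeR called 2.89% and DESeq2 7.51%, and 17.6% had an unadjusted p under 0.05 by edgeR. Of 46 assembly factors 0 were called by edgeR (6 at an unadjusted p under 0.05) and 1, Ndufaf4, by DESeq2, with a median log2 fold change of 0.07. The smallest p-values were those of Ndufaf4, a complex I assembly factor, at 0.40 (SE 0.11, adjusted p = 0.0867), and Cox10, which makes the heme of complex IV, at 0.35 (SE 0.09, adjusted p = 0.0883). Of 11 genes for copying and reading mitochondrial DNA 0 were called by edgeR (1 at an unadjusted p under 0.05) and 0 by DESeq2, with a median of 0.11. Polg, the mitochondrial DNA polymerase, stood at -0.23 (SE 0.09) and the single-strand binding protein Ssbp1 at 0.13. Of 14 genes for mitochondrial mRNA processing 0 were called by edgeR (3 at an unadjusted p under 0.05) and 0 by DESeq2, with a median of 0.14, the helicase Supv3l1 at 0.24 (SE 0.08) and Tbrg4 at 0.25 (SE 0.09).

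Of 11 nuclear regulators 0 were called by edgeR (2 at an unadjusted p under 0.05, against 17.6% of all genes). DESeq2 called 2, Ppargc1a and Esrrg, against 7.51% of all genes, and the median was -0.03. Ppargc1a, the coactivator of mitochondrial gene programmes, had 5.85, 4.42 and 4.66 CPM in controls and 7.996, 9.74 and 7.18 in the cold. All cold libraries lay above all controls, as in 12.7% of all genes. The log2 difference was 0.74 (SE 0.18, adjusted p = 0.0738 by edgeR). The receptor Esrrg stood at 1.54 (SE 0.52, adjusted p = 0.177). Of 8 genes for other entries of electrons to ubiquinone 0 were called by edgeR (0 at an unadjusted p under 0.05) and 0 by DESeq2, with a median of 0.05, Gpd2 at 0.19 and Etfdh at 0.09. Among 5 tested genes of proton leak and nucleotide exchange 1 rose, Ucp3, from 35.5, 31.1 and 37.1 CPM to 43.8, 50.5 and 50.4, a log2 difference of 0.48 (SE 0.10; edgeR, adjusted p = 0.0411). The ADP/ATP carrier Slc25a5 stood at 0.28 (SE 0.09, adjusted p = 0.133) and was called by DESeq2, as was Ucp3.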

How the data were processed

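The submitters' processing notes name the tools bcl2fastq, cutadapt and Salmon and the build GRCm38; the sources used here give no versions or strand setting. Per the labels, libraries were strand-specific, paired-end, 50 nt. Each library's deposited table lists 140658 transcripts with the authors' estimated counts, TPM and effective lengths, per the file headers. Identifiers matched GENCODE M21 for 140137 transcripts; the other 521 (0.124 to 0.394% of counts) were left out. Counts were summed per gene and rounded. Genes passing filterByExpr (10 counts, 3 libraries, total 15) were scaled by TMM and compared with glmQLFit (robust) and glmQLFTest in edgeR 4.0.16 (R 4.3.3), two-sided, adjusted by the Benjamini-Hochberg method over all 17852 genes. CPM use TMM-scaled library sizes. Exact permutation of 3 against 3 libraries cannot go below p = 0.10.

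Members and lists were chosen with earlier results of these data known. Named members are markers, mitochondrial genes, core subunits, isoform families, untested members and, per complex, extremes of p, fold change and TPM. The rest, some cell type markers, the transcripts of Cox7c and Ndufa9 and the promoters shown were named after their values were seen. Alternatives were RLE factors, no filter, a length offset, DESeq2 1.42.0, scaling without mitochondrial genes and leaving out libraries; sums with near copies and TPM sums were added after the data were seen. Near copies were found by blastn. Tested on simulated counts over 17852 genes with 50 genes per fold size, the comparison recovered 36% of 1.5-fold, 60% of 2-fold, 86% of 4-fold and 74% of 0.25-fold changes; 9.22% of its calls were false. Replicate libraries differed beyond counting noise (chi-square per degree of freedom 12.2 to 33.2). The values of 1 tested member are not reported singly here; it stays in every count and sum.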

Additional observations from a re-analysis of the deposited data

How the results depend on the processing

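No paired analysis was possible because the mouse numbers differ between the groups. No member was called under RLE factors, the length offset, scaling without mitochondrial genes, sums with near copies or without ctrl 5 and cold 7 together. With no filter and with DESeq2, 1 member was called higher (Cycs); leaving out 1 library gave 0 to 1 (mt-Nd3 without cold 7). Genes called higher numbered 696 with no filter, 1036 by DESeq2 and 1145 without ctrl 5 and cold 7 together, 0 to 929 with 1 library left out. Genes called lower numbered 228 with no filter, 58 with the length offset and 304 by DESeq2, 0 to 161 with 1 library left out. Transcripts called numbered 8 with no filter and 1162 by DESeq2, 1 of them of a member. The median log2 fold change of complex V was 0.0321 without ctrl 5 and cold 7 together and 0.0353 to 0.151 with 1 library left out. By CPM, mean isoform shares were 43.5% for Cox7a2, 98.3% for Cox8a and 90.4% for Ndufa4.

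Signs turned for these named members, none called. With the length offset Ndufa4 was 0.00826, Ndufs7 0.0204, Cyc1 -0.0158, Uqcrc1 -0.0412 and Cox5b 0.0267 on the log2 scale. With no filter Cyc1 was -0.00149 and Uqcrc1 -0.00494. Cox5b was 0.00298 with RLE factors and 0.00292 by DESeq2. Without ctrl 5 and cold 7 together Cox5b was 0.0123, Cox6a1 -0.0522, Cox6b1 -0.0229 and Atp5b -0.0238. With 1 library left out, ranges were -0.0214 to 0.106 for Atp5b, -0.374 to 0.0927 for Atp5g2, -0.0241 to 0.125 for Cox4i1, -0.306 to 0.0699 for Cox4i2, -0.0562 to 0.0691 for Cox5b, -0.0325 to 0.0776 for Cox6a1, -0.00345 to 0.0981 for Cox6b1, -0.0539 to 0.0971 for Cyc1 and -0.0746 to 0.0254 for Ndufa4. They were -0.0593 to 0.0498 for Ndufs7, -0.0503 to 0.0241 for Sdha, -0.0267 to 0.0729 for Sdhc, -0.0635 to 0.0851 for Uqcrc1, -0.0300 to 0.096 for Uqcrc2, -0.000435 to 0.256 for mt-Co3 and -0.0600 to 0.293 for mt-Nd4. The cause was not tested. With 3 libraries a group, most changes of 1.5-fold were missed on simulated counts, where the changed genes were drawn at random from all tested genes. Members had a smaller median SE than all genes tested, 0.09 against 0.15, so that rate does not carry over to them.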
